A study of Mus musculus with 9 samples.

Results

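Here 46 genes that act in mitosis were followed by RNA-seq in RAW264.7, an established line of mouse macrophages. The members were chosen by symbol: each row of the deposited gene table whose Ensembl identifier carries a listed symbol in the GENCODE M21 annotation was taken, and all 46 were found among 28137 identifiers. The table holds 9 libraries, 3 from cells given a negative control siRNA (NC), 3 from cells given SFRP2 siRNA and 3 from cells given RAB6A siRNA. Sfrp2 encodes a secreted protein that acts on Wnt signalling, and Rab6a encodes a Golgi GTPase. Per the labels, the siRNA was given at 60 nM for 6 h, the cells then spent 12 h in complete medium, and lipopolysaccharide (LPS) was added at 100 ng/ml for 24 h before RNA was taken. All 3 groups therefore carried LPS and a transfection, and no untreated or untransfected cells were analysed here. The study's methods give another siRNA dose and add interferon gamma to the LPS, which the labels do not. The title of the series asks how SFRP2 shapes the state and energy metabolism of macrophages. The cells are 1 line, and the labels do not say whether the libraries of a group came from separate cultures, so p-values measure only the spread between these libraries, which may be technical. The SFRP2 siRNA libraries are titled with the names that the study gives to different siRNAs, and whether each library received a different one is not stated.

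Mitosis begins when the kinase CDK1, bound to cyclin B, becomes active, after which Polo and Aurora kinases help to build the spindle and condensins compact the chromosomes. The spindle assembly checkpoint holds back CDC20, the activator of the anaphase-promoting complex, until every kinetochore is attached. That complex then marks cyclin B and securin for destruction, separase cuts the cohesin that holds sister chromatids together, and the central spindle guides cytokinesis. Many genes of this programme are transcribed in G2 and M phase through MuvB complexes, B-Myb and FOXM1 at CHR elements, with NF-Y at CCAAT boxes, and the same elements serve to repress them in resting cells. LPS is known to slow the division of macrophages.

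The start regions of these genes are shown because the members share these sequence elements, which the choice of members did not use. RefSeq promoter sequences on GRCm38.p6 were matched by symbol for 39 of the 46 members. Each covers 250 bases before and 50 bases after a start of the gene as RefSeq places it. For Cdca8, Kif2c, Kif4, Mad2l1 and Pttg1 the window does not include the 5′ end of the gene in GENCODE M21, so that end was not searched. Those without an entry were Aurkb, Ccna2, Cdc25c, Foxm1, Incenp, Smc4 and Tpx2. The core of the CHR element, TTTGAA, was searched on both strands and reads TTCAAA when it lies on the strand opposite the gene. The box of NF-Y, CCAAT, was searched in the same way and then reads ATTGG. Only these exact letters were searched, so variants of either element were not counted. Below, 150 bases of 6 members run 5′ to 3′ on the gene's strand, from 120 bases before the start to 30 bases after it, with every match in capitals. Ccnb2, Cdk1 and Cdc20 hold both motifs close to the start, and Ccnb1 holds CCAAT but not TTTGAA. Cenpa is the member that rose with RAB6A siRNA. Pttg1 is 1 of the 2 members that did not pass the test there. The other is Smc4, which is among those without an entry.
Ccnb2, chr9:70421525-70421674, minus strand: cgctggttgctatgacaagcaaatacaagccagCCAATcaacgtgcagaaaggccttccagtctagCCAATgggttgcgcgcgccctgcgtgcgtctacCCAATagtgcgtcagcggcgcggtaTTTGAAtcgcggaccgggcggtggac
Cdk1, chr10:69352883-69353032, minus strand: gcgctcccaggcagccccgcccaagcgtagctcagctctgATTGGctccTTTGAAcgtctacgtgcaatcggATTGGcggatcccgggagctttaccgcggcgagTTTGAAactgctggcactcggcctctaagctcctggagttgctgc
Cdc20, chr4:118437314-118437463, minus strand: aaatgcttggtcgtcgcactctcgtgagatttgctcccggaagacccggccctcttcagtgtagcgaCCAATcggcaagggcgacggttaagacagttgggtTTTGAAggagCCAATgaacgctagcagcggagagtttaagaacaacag
Ccnb1, chr13:100786457-100786606, minus strand: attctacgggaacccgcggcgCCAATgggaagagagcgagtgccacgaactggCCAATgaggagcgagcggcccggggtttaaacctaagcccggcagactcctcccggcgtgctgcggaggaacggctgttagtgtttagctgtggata
Cenpa, chr5:30666766-30666915, plus strand: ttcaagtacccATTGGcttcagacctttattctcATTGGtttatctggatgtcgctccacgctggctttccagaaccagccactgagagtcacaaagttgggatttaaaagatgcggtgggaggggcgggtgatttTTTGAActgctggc
Pttg1, chr11:43425952-43426101, minus strand: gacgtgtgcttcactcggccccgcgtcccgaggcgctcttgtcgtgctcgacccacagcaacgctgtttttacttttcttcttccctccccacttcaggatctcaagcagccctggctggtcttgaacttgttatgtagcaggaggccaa

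In the full windows of 300 bases, TTTGAA stood in 29 of the 39 members (74.4%), against 20.2% of the 27025 genes with a promoter entry. CCAAT stood in 32 members (82.1%), against 41.1% of all genes. Both motifs were held by 27 members (69.2%), against 8.97% of all genes. Of 39 DNA replication genes with an entry, 17.9% held TTTGAA, 59.0% held CCAAT and 10.3% held both. The windows of Birc5, Mad2l1, Ncaph, Nusap1 and Pttg1 held neither, which says only that these letters are not in these windows. Those of Mad2l1 and Pttg1 miss the GENCODE M21 5′ end of the gene. The letters shown for Cenpa include TTTGAA at 17 bases after the start and ATTGG at 109 and 86 bases before it. A match is a description of sequence, not a site shown to be bound. The motifs overlapped each other in Cdca8, where they share letters.

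Sequencing depth and identity were checked first. The libraries held 41608379 to 47149258 reads in NC, 34743304 to 40562562 with SFRP2 siRNA and 32758729 to 37833882 with RAB6A siRNA, recovered from the FPKM (fragments per kilobase of exon, scaled to the depth of the library) that the authors deposited. A single member had 387 to 29018 reads per library in NC, 353 to 28341 with SFRP2 siRNA and 121 to 12651 with RAB6A siRNA, so that all 46 were counted well above the limit of detection. All 9 macrophage markers (Cd68, Lyz2, Csf1r, Itgam, Ptprc, Fcgr3, Cd14, Mrc1 and Adgre1) were detected, with a summed FPKM of 4419 to 4872 in NC, 3914 to 4229 with SFRP2 siRNA and 3926 to 4073 with RAB6A siRNA. Markers of T, B, endothelial, epithelial and fibroblast cells and of neutrophils summed to at most 2.04 FPKM per list in any library, and Cd3e, Ms4a1 and Ly6g have no row among those analysed here. Rab6a measured 25.7 ± 1.48 FPKM in NC, 27.0 ± 1.45 with SFRP2 siRNA and 20.7 ± 0.445 with RAB6A siRNA (mean ± SD, n = 3). Most of the Rab6a transcript thus remained with RAB6A siRNA, and its protein was not measured here. Sfrp2 had 2 reads in each NC library, 2 to 4 with SFRP2 siRNA and 3 to 4 with RAB6A siRNA, so its level cannot check the label of the SFRP2 siRNA libraries.

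RAB6A siRNA was accompanied by a lower level of nearly the whole mitotic set. Together the 46 genes took 0.367% to 0.407% of all reads in NC and 0.422% to 0.442% with SFRP2 siRNA, but 0.171% to 0.202% with RAB6A siRNA. Against NC, 43 of the 46 members fell, 1 rose (Cenpa) and 2 did not pass the test (Smc4 and Pttg1), at an adjusted p under 0.05 from limma over 12712 genes. Among all genes tested, 36.5% were called lower and 37.6% higher, so that a change in this comparison was common. The median log2 fold change of the members was -1.28, beside 0.03 for all genes tested. A fall of more than 1 on the log2 scale was called for 32 members, beside 12.8% of all genes. Of the 46, 27 lay among the lowest 10% of all log2 fold changes, which ended at -1.16. The members that fell were 1.35-fold lower (Ncaph) to 6.14-fold lower (Nek2) as ratios of mean FPKM, the measure of every fold given here, while log2 fold changes are on the scale of FPKM + 0.1, and the largest adjusted p among the called members was 0.00237. For 43 members all 3 RAB6A siRNA values lay below all 3 NC values, beside 38.2% of all genes, and an exact permutation test of 3 against 3 libraries cannot go below p = 0.1. In such bulk RNA, fewer cells in G2 and mitosis and less of each mRNA per dividing cell cannot be told apart. With so many genes called in both directions, a level here is a share of each library's RNA, since FPKM carries no measure of RNA per cell.

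**Figure D1:**
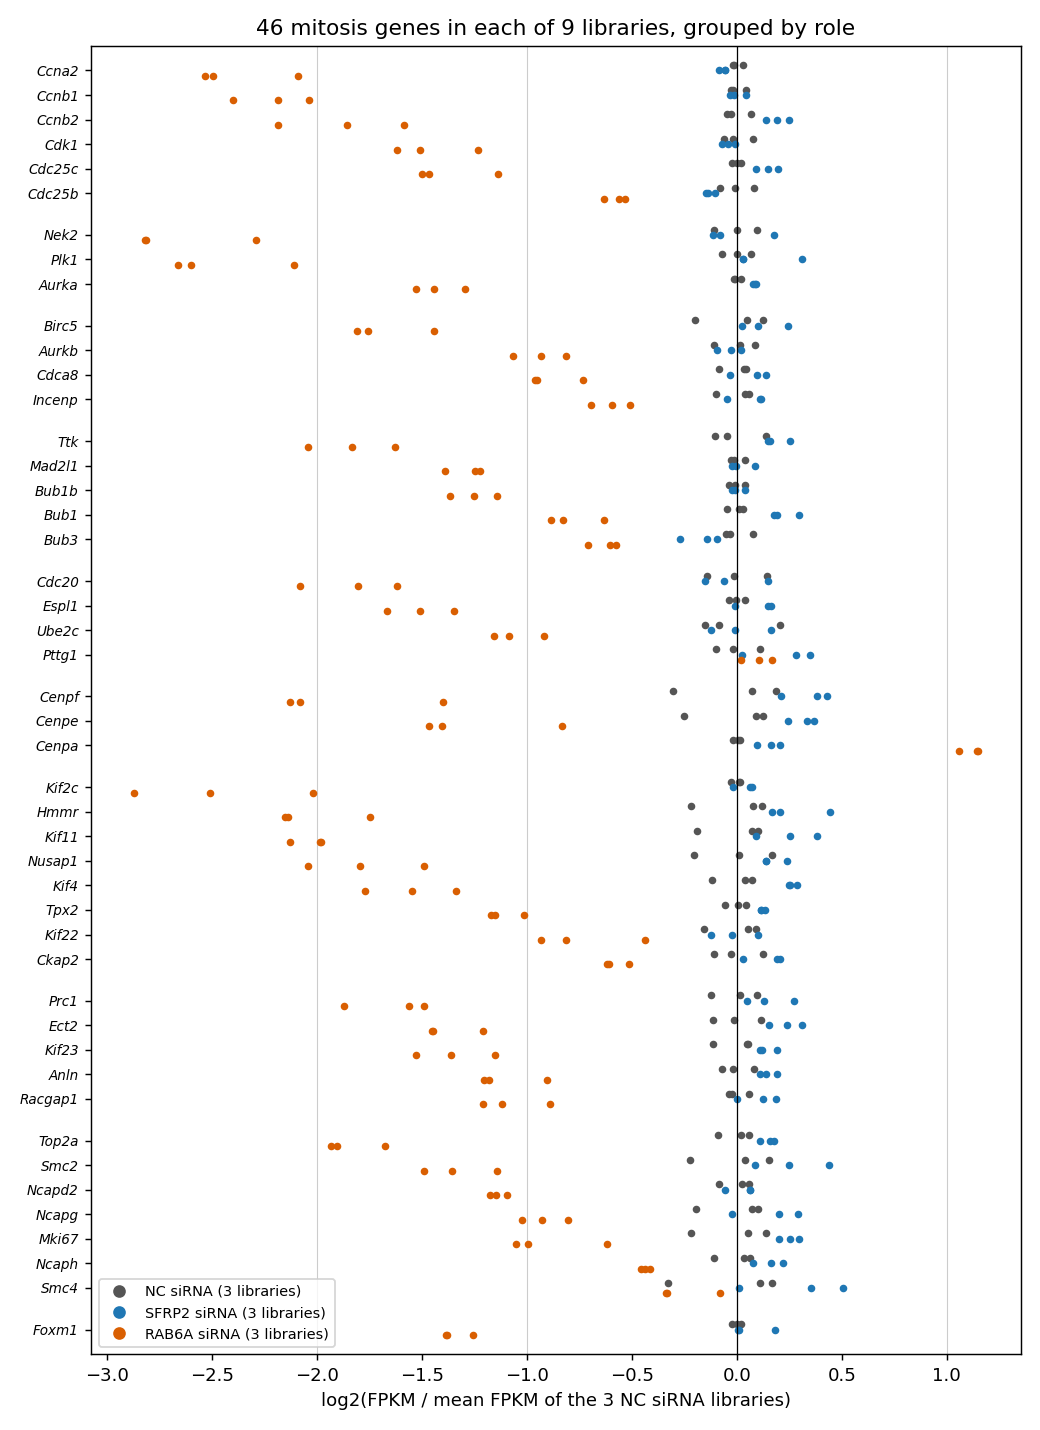
Level of each of the 46 mitosis genes in each library, as the log2 ratio of its FPKM to the mean FPKM of the NC libraries, with genes on the vertical axis grouped by role and 1 point per library coloured by group. The RAB6A siRNA points lie to the left of the NC points for 43 genes, with Cenpa to the right and Smc4 and Pttg1 overlapping.

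CDK1, its cyclins and its activators fell, 6 of 6, with a median log2 fold change of -1.64. Counts for this and each later role are to be read beside all genes tested. Of those, 36.5% were called lower and 12.8% lower by more than 1 on the log2 scale. For 38.2% all RAB6A siRNA values lay below all NC values. Positions of whole genes are those of GENCODE M21 on GRCm38. Ccnb1 (ENSMUSG00000041431, chr13:100778650-100786570), the B-type cyclin that switches CDK1 on at entry into mitosis, measured 15.3, 16.0 and 15.2 FPKM in NC, 15.9, 15.1 and 15.3 with SFRP2 siRNA and 3.41, 2.93 and 3.77 with RAB6A siRNA. The RAB6A siRNA values lay far below the other 6, which overlapped each other, and the level was 4.59-fold lower than in NC (log2 fold change -2.17, SE 0.09, limma adjusted p = 2.05e-06). Ccna2 (ENSMUSG00000027715), the cyclin of S and G2 phase, measured 34.3, 35.3 and 34.2 FPKM in NC, 32.6, 33.3 and 33.3 with SFRP2 siRNA and 6.15, 5.99 and 8.13 with RAB6A siRNA. That was 5.12-fold lower than in NC (log2 fold change -2.35, SE 0.11, limma adjusted p = 2.93e-06), and 12.5% of its exon length lies opposite exons of Exosc9, a gene at 6.56 FPKM in NC. Cdk1 (ENSMUSG00000019942), the kinase itself, measured 10.9, 11.6 and 10.6 FPKM in NC, 10.9, 10.7 and 10.5 with SFRP2 siRNA and 3.59, 4.69 and 3.87 with RAB6A siRNA. The 3 lowest values were again those of RAB6A siRNA (log2 fold change -1.43, SE 0.10, limma adjusted p = 1.43e-05). Ccnb2 (ENSMUSG00000032218), the second B-type cyclin, measured 24.5, 26.2 and 24.2 FPKM in NC, 27.5, 29.7 and 28.5 with SFRP2 siRNA and 5.50, 6.91 and 8.31 with RAB6A siRNA, with all SFRP2 siRNA values above NC and all RAB6A siRNA values below it (log2 fold change -1.86, SE 0.14, limma adjusted p = 1.52e-05). The CDC25 phosphatases remove the inhibitory phosphates from CDK1. Cdc25c (ENSMUSG00000044201), the member of lowest level in NC, measured 1.89, 1.84 and 1.87 FPKM in NC, 1.99, 2.14 and 2.07 with SFRP2 siRNA and 0.677, 0.661 and 0.850 with RAB6A siRNA (log2 fold change -1.25, SE 0.14, limma adjusted p = 1.27e-04). Cdc25b (ENSMUSG00000027330) measured 9.52, 8.50 and 8.95 FPKM in NC, 8.19, 8.13 and 8.38 with SFRP2 siRNA and 6.23, 6.10 and 5.81 with RAB6A siRNA, the smallest fall of the group (log2 fold change -0.56, SE 0.07, limma adjusted p = 1.82e-04).

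The kinases Plk1, Nek2 and Aurka gave 3 falls of 3 and the lowest median of any role, -2.43. Nek2 (ENSMUSG00000026622, chr1:191821444-191833050), a centrosome kinase that helps to separate the spindle poles, measured 15.9, 18.3 and 17.1 FPKM in NC, 15.8, 16.2 and 19.3 with SFRP2 siRNA and 2.43, 2.42 and 3.495 with RAB6A siRNA. It had the deepest fall of the 46, 6.14-fold (log2 fold change -2.59, SE 0.14, limma adjusted p = 4.62e-06). Plk1 (ENSMUSG00000030867, chr7:122159439-122169873), the Polo kinase needed from centrosome maturation to cytokinesis, measured 29.3, 32.2 and 30.8 FPKM in NC, 31.5, 31.4 and 38.3 with SFRP2 siRNA and 5.08, 4.87 and 7.13 with RAB6A siRNA. The NC and SFRP2 siRNA values overlapped, and the RAB6A siRNA values were 5.41-fold below NC (log2 fold change -2.43, SE 0.14, limma adjusted p = 5.13e-06). Aurka (ENSMUSG00000027496), the Aurora kinase of the spindle poles, measured 40.1, 39.9 and 40.9 FPKM in NC, 42.7, 43.0 and 42.5 with SFRP2 siRNA and 14.0, 14.8 and 16.4 with RAB6A siRNA. In its case the SFRP2 siRNA values lay slightly above NC and the RAB6A siRNA values 2.67-fold below it (log2 fold change -1.41, SE 0.07, limma adjusted p = 2.94e-06).

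**Figure D2:**
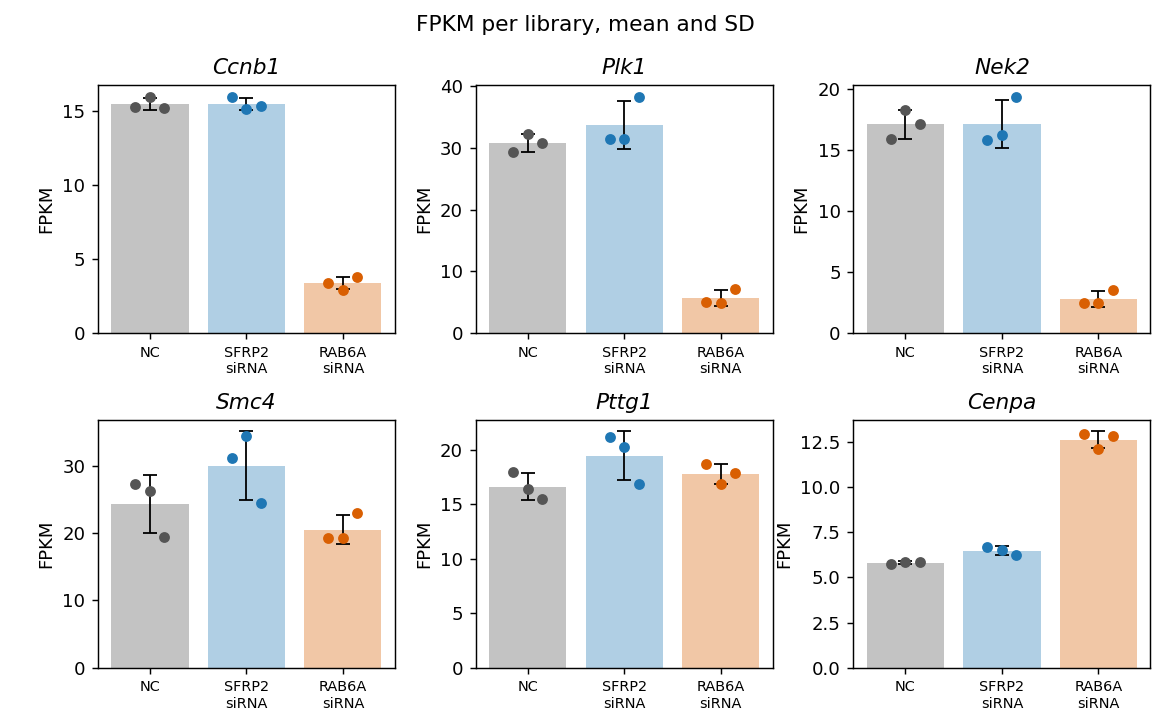
FPKM of Ccnb1, Plk1, Nek2, Smc4, Pttg1 and Cenpa in the 9 libraries, 1 panel per gene with FPKM from 0 on the vertical axis, 1 point per library, bars at each group's mean and error bars of 1 SD (n = 3). Ccnb1, Plk1 and Nek2 sit lowest with RAB6A siRNA, Smc4 and Pttg1 overlap between NC and RAB6A siRNA, and Cenpa sits highest with RAB6A siRNA.

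The chromosomal passenger complex, which corrects faulty attachments and then moves to the central spindle, gave 4 falls of 4 with a median of -0.89, of which 1 exceeded 1 on the log2 scale. Birc5 (ENSMUSG00000017716), its survivin subunit, measured 10.9, 11.5 and 9.20 FPKM in NC, 10.7, 12.5 and 11.3 with SFRP2 siRNA and 3.12, 3.01 and 3.88 with RAB6A siRNA and was 3.16-fold lower than NC (log2 fold change -1.63, SE 0.12, limma adjusted p = 1.69e-05). Aurkb (ENSMUSG00000020897), its kinase, measured 11.7, 11.1 and 10.2 FPKM in NC, 10.3, 11.2 and 10.8 with SFRP2 siRNA and 6.27, 5.26 and 5.77 with RAB6A siRNA (log2 fold change -0.92, SE 0.09, limma adjusted p = 4.89e-05). Cdca8 (ENSMUSG00000028873), the subunit named borealin, measured 7.55, 7.60 and 6.95 FPKM in NC, 8.12, 7.89 and 7.20 with SFRP2 siRNA and 3.78, 3.81 and 4.44 with RAB6A siRNA (log2 fold change -0.86, SE 0.09, limma adjusted p = 6.38e-05). The groups NC and RAB6A siRNA did not overlap for any of them. Incenp (ENSMUSG00000024660), the scaffold and the member with the highest mean in NC, measured 56.4, 62.9 and 62.1 FPKM in NC, 58.5, 65.2 and 65.5 with SFRP2 siRNA and 40.02, 37.4 and 42.6 with RAB6A siRNA. Its fall was 1.51-fold (log2 fold change -0.59, SE 0.07, limma adjusted p = 1.66e-04), so that the subunits of 1 complex ranged from 1.51-fold to 3.16-fold.

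In the spindle assembly checkpoint 5 of 5 members fell, with a median of -1.24. Ttk (ENSMUSG00000038379), the kinase that starts checkpoint signalling at unattached kinetochores, measured 5.70, 6.76 and 5.94 FPKM in NC, 6.80, 7.31 and 6.86 with SFRP2 siRNA and 1.49, 1.73 and 1.99 with RAB6A siRNA (log2 fold change -1.77, SE 0.12, limma adjusted p = 1.06e-05). Bub1b (ENSMUSG00000040084), which encodes BubR1 of the mitotic checkpoint complex, measured 25.8, 26.6 and 25.3 FPKM in NC, 25.8, 26.6 and 25.5 with SFRP2 siRNA and 10.1, 10.9 and 11.8 with RAB6A siRNA (log2 fold change -1.24, SE 0.07, limma adjusted p = 4.89e-06). Mad2l1 (ENSMUSG00000029910), whose protein binds and holds CDC20, measured 6.14, 6.37 and 6.08 FPKM in NC, 6.10, 6.19 and 6.58 with SFRP2 siRNA and 2.37, 2.61 and 2.66 with RAB6A siRNA (log2 fold change -1.25, SE 0.08, limma adjusted p = 6.31e-06). For these genes every RAB6A siRNA value lay below every NC value. The scaffold kinase Bub1 (ENSMUSG00000027379) measured 17.2, 16.9 and 16.3 FPKM in NC, 19.2, 20.6 and 19.0 with SFRP2 siRNA and 9.48, 9.11 and 10.9 with RAB6A siRNA, and its fall of 1.71-fold was smaller (log2 fold change -0.77, SE 0.08, limma adjusted p = 6.67e-05). Bub3 (ENSMUSG00000066979), which carries Bub1 and BubR1 to kinetochores, measured 18.9, 18.6 and 20.4 FPKM in NC, 18.1, 16.0 and 17.5 with SFRP2 siRNA and 12.7, 13.0 and 11.8 with RAB6A siRNA, the smallest fall among the checkpoint genes (log2 fold change -0.62, SE 0.06, limma adjusted p = 7.95e-05).

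Of the partners and targets of the anaphase-promoting complex, 3 of 4 fell by more than 1 on the log2 scale and securin did not pass the test. Cdc20 (ENSMUSG00000006398), its activator, measured 25.8, 21.2 and 23.1 FPKM in NC, 25.9, 22.4 and 21.03 with SFRP2 siRNA and 5.54, 6.69 and 7.62 with RAB6A siRNA. It was 3.53-fold lower than in NC (log2 fold change -1.81, SE 0.13, limma adjusted p = 1.13e-05), and 2.84% of its exon length lies opposite Elovl1, which measured 54.4 FPKM in NC and 25.1 with RAB6A siRNA. Espl1 (ENSMUSG00000058290), separase, measured 5.07, 4.91 and 4.80 FPKM in NC, 5.47, 4.91 and 5.51 with SFRP2 siRNA and 1.73, 1.56 and 1.94 with RAB6A siRNA (log2 fold change -1.45, SE 0.10, limma adjusted p = 9.92e-06). Ube2c (ENSMUSG00000001403), the E2 enzyme that starts ubiquitin chains for the complex, measured 41.0, 32.0 and 33.5 FPKM in NC, 39.8, 35.3 and 32.6 with SFRP2 siRNA and 16.7, 15.9 and 18.8 with RAB6A siRNA (log2 fold change -1.04, SE 0.11, limma adjusted p = 7.46e-05). It shares 22.8% of its exon length with Tnnc2 on the other strand, and strand-specific counting is not stated. Pttg1 (ENSMUSG00000020415, chr11:43420250-43426251), securin, the inhibitor of separase, measured 17.9, 16.4 and 15.5 FPKM in NC, 21.1, 20.2 and 16.9 with SFRP2 siRNA and 18.7, 16.9 and 17.9 with RAB6A siRNA. The NC and RAB6A siRNA values overlapped, with a log2 fold change of 0.10 (95% interval -0.07 to 0.27, limma adjusted p = 0.245), an interval that holds no fall of the size seen for Espl1. Under quantile normalization its log2 fold change of 0.22 passed the test as a rise (limma adjusted p = 0.0234), and with correction for GC content and gene length that of 0.20 did (limma adjusted p = 0.0417).

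Centromere and kinetochore genes moved in both directions. Cenpf (ENSMUSG00000026605), a large protein of the outer kinetochore, measured 5.04, 4.66 and 3.58 FPKM in NC, 5.76, 5.95 and 5.12 with SFRP2 siRNA and 1.05, 1.01 and 1.68 with RAB6A siRNA (log2 fold change -1.77, SE 0.21, limma adjusted p = 1.61e-04). Cenpe (ENSMUSG00000045328), the kinetochore motor that brings chromosomes to the spindle equator, measured 15.6, 15.2 and 12.0 FPKM in NC, 18.0, 18.4 and 16.9 with SFRP2 siRNA and 5.16, 5.39 and 8.0 with RAB6A siRNA (log2 fold change -1.21, SE 0.18, limma adjusted p = 5.18e-04). Both were lower in every RAB6A siRNA library than in any NC library. Cenpa (ENSMUSG00000029177, chr5:30666777-30674830), the histone H3 variant that marks the centromere, measured 5.75, 5.84 and 5.88 FPKM in NC, 6.71, 6.52 and 6.23 with SFRP2 siRNA and 12.9, 12.1 and 12.8 with RAB6A siRNA. It was the only member that rose, to 2.17-fold of NC (log2 fold change 1.10, SE 0.06, limma adjusted p = 3.89e-06), and all 3 values exceeded all 6 of the other groups, an order that 39.2% of all genes tested showed against NC. No other GENCODE M21 gene shares exon bases with Cenpa, Pttg1 or Smc4.

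The spindle motors and microtubule proteins fell in 8 of 8 cases, with a median of -1.62. Kif11 (ENSMUSG00000012443), the motor that pushes the spindle poles apart, measured 7.75, 7.59 and 6.33 FPKM in NC, 8.62, 9.42 and 7.69 with SFRP2 siRNA and 1.82, 1.83 and 1.65 with RAB6A siRNA (log2 fold change -1.97, SE 0.10, limma adjusted p = 3.45e-06). Hmmr (ENSMUSG00000020330), a spindle pole protein also known as a hyaluronan receptor, measured 14.5, 14.9 and 11.8 FPKM in NC, 15.8, 18.6 and 15.4 with SFRP2 siRNA and 3.10, 3.12 and 4.09 with RAB6A siRNA (log2 fold change -1.97, SE 0.13, limma adjusted p = 1.08e-05). Tpx2 (ENSMUSG00000027469), which activates Aurora A on spindle microtubules, measured 38.0, 39.0 and 36.4 FPKM in NC, 41.0, 40.9 and 41.5 with SFRP2 siRNA and 16.8, 17.0 and 18.7 with RAB6A siRNA (log2 fold change -1.11, SE 0.06, limma adjusted p = 5.02e-06). In each the RAB6A siRNA group stood apart below NC. Kif2c (ENSMUSG00000028678), a microtubule depolymerase of the centromere, measured 10.5, 10.5 and 10.2 FPKM in NC, 10.9, 10.9 and 10.3 with SFRP2 siRNA and 1.42, 1.82 and 2.56 with RAB6A siRNA. It had the deepest fall of the role, 5.37-fold (log2 fold change -2.40, SE 0.18, limma adjusted p = 1.80e-05), and was singled out after its values were seen. Kif4 (ENSMUSG00000034311), a chromosome-arm motor, measured 5.71, 5.58 and 5.00 FPKM in NC, 6.62, 6.48 and 6.46 with SFRP2 siRNA and 1.59, 1.86 and 2.15 with RAB6A siRNA (log2 fold change -1.50, SE 0.12, limma adjusted p = 2.17e-05). It shares 15.1% of its exon length with Pdzd11 on the other strand, which measured 10.2 FPKM in NC and 14.8 with RAB6A siRNA. Kif22 (ENSMUSG00000030677), another chromosome-arm motor, measured 4.70, 4.58 and 3.96 FPKM in NC, 4.73, 4.35 and 4.06 with SFRP2 siRNA and 2.32, 3.27 and 2.52 with RAB6A siRNA and had the largest adjusted p of the members that fell (log2 fold change -0.70, SE 0.14, limma adjusted p = 0.00237). Nusap1 and Ckap2, which bind and stabilise spindle microtubules, fell with log2 fold changes of -1.74 and -0.57.

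Genes of the central spindle and cytokinesis fell in 5 of 5 cases, all by more than 1 on the log2 scale, within the narrow range of -1.55 to -1.05. A fall of that size was called for 12.8% of all genes tested. Ect2 (ENSMUSG00000027699), the exchange factor that activates RhoA at the division plane, measured 9.65, 8.84 and 8.23 FPKM in NC, 11.03, 10.5 and 9.91 with SFRP2 siRNA and 3.26, 3.26 and 3.85 with RAB6A siRNA (log2 fold change -1.34, SE 0.10, limma adjusted p = 1.28e-05). Kif23 (ENSMUSG00000032254), the motor subunit of centralspindlin, measured 10.4, 10.4 and 9.31 FPKM in NC, 10.9, 11.5 and 10.9 with SFRP2 siRNA and 3.91, 3.49 and 4.54 with RAB6A siRNA (log2 fold change -1.32, SE 0.10, limma adjusted p = 2.13e-05). Prc1 (ENSMUSG00000038943), which bundles the microtubules of the midzone, measured 3.64, 3.44 and 3.13 FPKM in NC, 3.73, 4.11 and 3.52 with SFRP2 siRNA and 1.15, 0.932 and 1.21 with RAB6A siRNA (log2 fold change -1.55, SE 0.13, limma adjusted p = 2.40e-05). These groups did not overlap, and Prc1 shares 11.1% of its exon length with Rccd1 on the other strand, which measured 1.43 FPKM in NC and 3.28 with RAB6A siRNA. Racgap1, the partner of Kif23 in centralspindlin, and Anln, the scaffold anillin of the contractile ring, had log2 fold changes of -1.05 and -1.07.

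Condensin subunits and chromosome structure genes had a smaller median of -0.90, and 6 of 7 fell. Top2a (ENSMUSG00000020914), the topoisomerase that untangles sister DNA, measured 33.1, 32.3 and 29.9 FPKM in NC, 35.5, 36.0 and 34.3 with SFRP2 siRNA and 8.51, 8.33 and 9.95 with RAB6A siRNA, a 3.56-fold fall (log2 fold change -1.82, SE 0.08, limma adjusted p = 2.41e-06). Smc2 (ENSMUSG00000028312), a core ATPase of both condensins, measured 27.1, 25.1 and 20.9 FPKM in NC, 29.0, 33.0 and 25.9 with SFRP2 siRNA and 9.54, 8.68 and 11.1 with RAB6A siRNA (log2 fold change -1.31, SE 0.12, limma adjusted p = 4.50e-05). Ncapd2 (ENSMUSG00000038252), a condensin I subunit, measured 14.0, 13.0 and 14.3 FPKM in NC, 14.4, 13.3 and 14.4 with SFRP2 siRNA and 6.22, 6.12 and 6.45 with RAB6A siRNA (log2 fold change -1.12, SE 0.06, limma adjusted p = 4.92e-06). The RAB6A siRNA values of all 3 genes lay below NC. Mki67 (ENSMUSG00000031004), which encodes the Ki-67 coat of mitotic chromosomes, measured 64.9, 61.2 and 50.8 FPKM in NC, 67.8, 72.4 and 70.2 with SFRP2 siRNA and 29.6, 28.4 and 38.4 with RAB6A siRNA, with its lowest NC value in replicate 3 (log2 fold change -0.88, SE 0.14, limma adjusted p = 6.53e-04). Smc4 (ENSMUSG00000034349, chr3:69004738-69034623), the other core ATPase of the condensins, measured 27.2, 26.2 and 19.4 FPKM in NC, 31.1, 34.4 and 24.5 with SFRP2 siRNA and 19.3, 19.2 and 23.0 with RAB6A siRNA. Here the RAB6A siRNA values overlapped NC replicate 3, and the log2 fold change of -0.23 (95% interval -0.56 to 0.09) did not pass the test (limma adjusted p = 0.166). Without NC replicate 3 it was -0.39 and passed (limma adjusted p = 0.0112). Of the remaining condensin I subunits, Ncapg had a log2 fold change of -0.90 and Ncaph of -0.43, and the latter was -0.10 after correction for GC content and gene length and no longer passed (limma adjusted p = 0.2).

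Foxm1 (ENSMUSG00000001517), the forkhead factor that drives transcription of many G2 and M phase genes, measured 12.0, 11.6 and 11.8 FPKM in NC, 11.8, 11.9 and 13.4 with SFRP2 siRNA and 4.54, 4.52 and 4.94 with RAB6A siRNA. Its level with RAB6A siRNA was 2.52-fold lower than in NC with no overlap (log2 fold change -1.32, SE 0.06, limma adjusted p = 2.86e-06). The promoter motifs were set beside these values with no test. The 27 members with both motifs had a median log2 fold change of -1.34 (range -2.43 to 1.10), and the 12 others with a sequence had -1.23 (range -2.59 to 0.10). Cenpa, the member that rose, was among the former and Pttg1 among the latter.

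**Figure D3:**
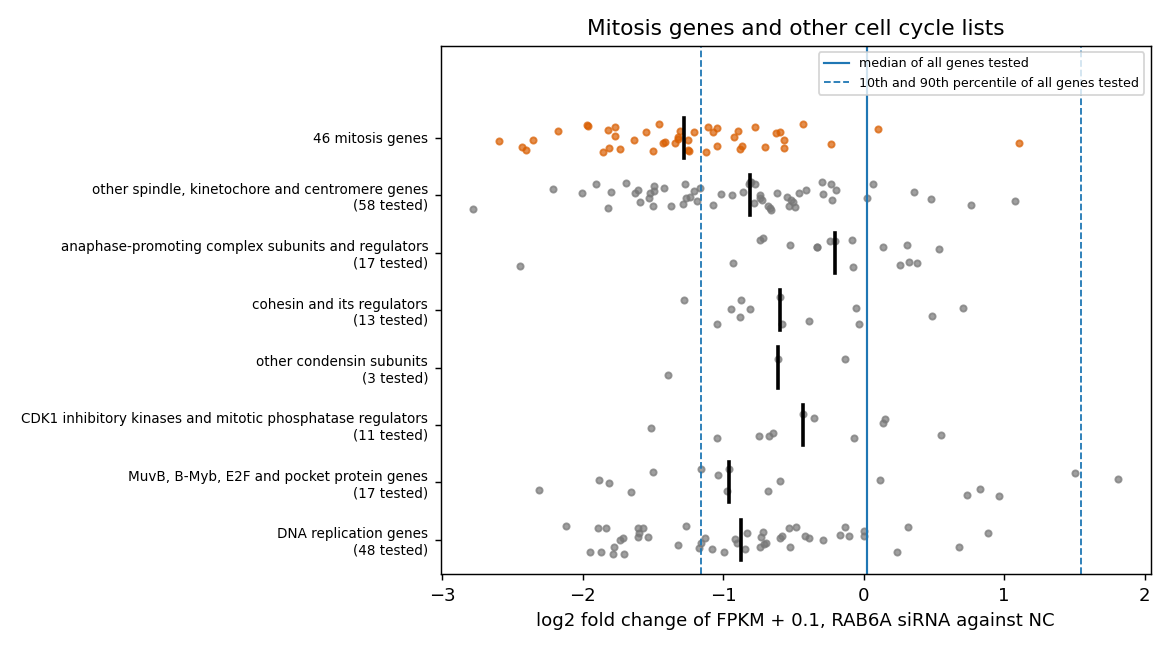
Log2 fold change of FPKM + 0.1, RAB6A siRNA against NC, for the mitosis genes and the 7 other gene lists on the vertical axis, with 1 point per gene tested (mitosis genes in orange, other lists in grey, heights within a row jittered), a black bar at each list's median, a solid vertical line at the median of all genes tested and dashed lines at their 10th and 90th percentiles. The medians run from -1.28 for the mitosis genes to -0.20 for the anaphase-promoting complex subunits.

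Genes that work beside the members in mitosis also fell for the most part. Of 58 other spindle, kinetochore and centromere genes tested, 49 fell and 4 rose, with a median of -0.81. Pbk, a mitotic kinase, measured 20.4, 17.7 and 17.1 FPKM in NC and 3.92, 4.16 and 3.60 with RAB6A siRNA (log2 fold change -2.21, SE 0.09, limma adjusted p = 1.68e-06). Tacc3, which stabilises kinetochore fibres, had a log2 fold change of -1.37, Mis12 of the kinetochore had -1.63, and Kntc1, a subunit of the checkpoint complex that recruits dynein, had -1.82. The 4 that rose, named after their values were seen, were Kif18a (1.07), Gtse1 (0.76), Cenpc1 (0.48) and Bora (0.36) on the log2 scale. Kif18a, a motor that dampens chromosome movement, measured 1.49, 1.52 and 1.30 FPKM in NC and 3.39, 2.91 and 3.10 with RAB6A siRNA. The subunits and regulators of the anaphase-promoting complex gave 9 falls and 4 rises among 17 and a median of -0.20, to be read beside the 36.5% of all genes called lower and 37.6% called higher, as is every list in these paragraphs. Those of smallest adjusted p were Ube2s (-0.93), the E2 enzyme that extends ubiquitin chains, Anapc5 (-0.74) and Anapc10 (-0.72), subunits of the complex, and Fbxo5 (-2.44), its inhibitor Emi1. The 4 that rose were the subunits Anapc2 (0.54), Cdc16 (0.26), Cdc26 (0.31) and Anapc13 (0.38).

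Among 17 tested genes of the MuvB, B-Myb, E2F and pocket protein families, 11 fell and 5 rose, with a median of -0.96. The pocket proteins, which repress E2F targets, did not move alike. Rb1 measured 2.28, 2.38 and 2.16 FPKM in NC and 6.53, 6.38 and 7.04 with RAB6A siRNA, a rise to 2.92-fold (log2 fold change 1.51, SE 0.08, limma adjusted p = 3.47e-06). Rbl2, the p130 of the DREAM repressor complex, measured 1.501, 1.21 and 1.36 FPKM in NC and 5.21, 4.56 and 5.26 with RAB6A siRNA, a rise to 3.69-fold (log2 fold change 1.81, SE 0.11, limma adjusted p = 6.18e-06). Rbl1, its relative p107, measured 11.9, 11.4 and 10.8 FPKM in NC and 2.98, 3.19 and 3.36 with RAB6A siRNA, a 3.59-fold fall (log2 fold change -1.81, SE 0.07, limma adjusted p = 1.67e-06). Tfdp1, the partner of the E2F proteins, measured 43.2, 43.7 and 43.6 FPKM in NC and 12.6, 14.3 and 14.3 with RAB6A siRNA (log2 fold change -1.66, SE 0.06, limma adjusted p = 1.54e-06). Mybl2, which encodes B-Myb, had a log2 fold change of -1.89 and was, with the further rises of Lin37 (0.96), E2f2 (0.83) and Lin52 (0.74), named after its value was seen. DNA replication genes, which serve S phase, gave 40 falls and 4 rises of 48 with a median of -0.87. Pole, Mcm2, Mcm6 and Rrm2, for a DNA polymerase, 2 helicase subunits and ribonucleotide reductase, had log2 fold changes of -1.78, -1.71, -1.72 and -1.84. Their median fall was thus smaller than that of the mitosis genes, a difference that was not tested.

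The libraries labelled SFRP2 siRNA gave no called change in the mitosis genes against NC. None of the 46 passed limma's adjusted p of 0.05, nor did any of the 12017 genes tested (0%), and the smallest adjusted p among the members was 0.178. The paper, by contrast, reports genes called in both directions with SFRP2 siRNA in RAW264.7 cells given LPS and interferon gamma. Its methods name DESeq2, with thresholds on adjusted p and fold change, and the reason for the difference was not tested. At an unadjusted p under 0.05 there were 14 members with a higher and 1 with a lower mean, beside 7.73% and 10.7% of all genes, and limma-voom on recovered reads called 0 members, with 20 at an unadjusted p under 0.05, and 7 genes higher and 35 lower among all. The mean was higher than in NC for 38 members, beside 47.5% of all genes tested, and lower for 8. The median log2 fold change was 0.13 for the members and -0.01 for all genes. For 17 members all SFRP2 siRNA values lay above all NC values, beside 10.9% of all genes, and for 3 they lay below, beside 13.9%. The largest estimate was 0.35 for Cenpf, and across the members the 95% intervals ran from -0.32 to 0.69, so that a doubling or halving lay outside every interval. The fits without a single library gave 5 to 16 members at an unadjusted p under 0.05. There were 7 without NC replicate 3, 6 without SFRP2 siRNA replicate 1 and 5 without SFRP2 siRNA replicate 2. For these fits and for limma-voom the share of all genes under that p was not counted. In this comparison the log2 fold change moved with GC content over all genes (Spearman rho -0.48 over 11903 genes, which are not independent), the members had a median GC content of 47.0% beside 49.2% for those genes, and the median of the members was 0.10 after correction for GC content and gene length.

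**Figure D4:**
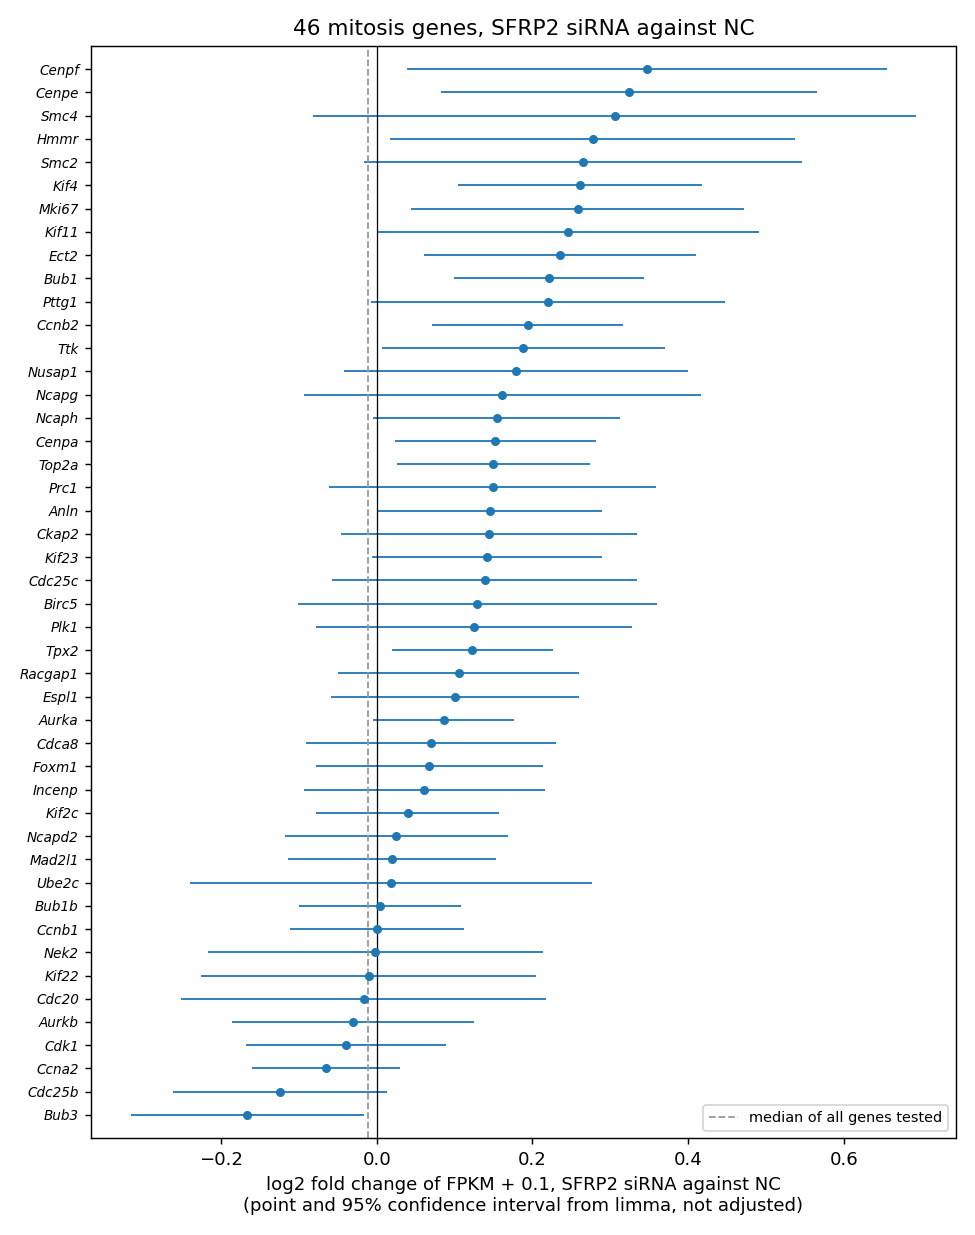
Log2 fold change of each of the 46 mitosis genes, SFRP2 siRNA against NC, on the horizontal axis with its 95% interval from limma, genes ordered by estimate on the vertical axis, a solid line at 0 and a dashed line at the median of all genes tested. The estimates run from -0.17 (Bub3) to 0.35 (Cenpf), none passed the adjusted threshold, and 38 of 46 lie above 0.

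The members with the smallest unadjusted p in each direction were small in effect. Bub1, whose 9 values are given above, had SFRP2 siRNA values that all exceeded NC, with a log2 fold change of 0.22 (SE 0.05, limma unadjusted p = 0.00361, adjusted p = 0.178). Kif4 had 0.26 (SE 0.07, limma unadjusted p = 0.00551, adjusted p = 0.178) and Ccnb2 had 0.19 (SE 0.05, limma unadjusted p = 0.00739, adjusted p = 0.178). Downward, Bub3 had -0.17 (limma unadjusted p = 0.0342, adjusted p = 0.241), Cdc25b had -0.12 and Ccna2 had -0.06. Cenpa, which rose with RAB6A siRNA, had 0.15 (95% interval 0.02 to 0.28), and Smc4 had 0.31 (-0.08 to 0.69). Ccnb1 and Cdk1 had 0.00 (95% interval -0.11 to 0.11) and -0.04 (-0.17 to 0.09).

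Both comparisons above share the NC libraries, so the siRNA groups were also set against each other directly. RAB6A siRNA against SFRP2 siRNA gave 44 members lower, 1 higher and 1 that did not pass, at an adjusted p under 0.05 from limma over 12764 genes, beside 35.8% of all genes lower and 37.6% higher. Of these falls 34 exceeded 1 on the log2 scale, beside 13.3% of all genes, and the median was -1.39. Nek2 had -2.59, Plk1 -2.56, Ccna2 -2.29 and Ccnb1 -2.17 on the log2 scale, with limma adjusted p of 9.89e-06, 1.05e-05, 5.40e-06 and 3.76e-06. Cenpa was again the member that was higher (log2 fold change 0.95, SE 0.06, limma adjusted p = 1.32e-05). Smc4 passed here as lower (log2 fold change -0.54, SE 0.14, limma adjusted p = 0.00882) but, after correction for GC content and gene length, did not at -0.21 (limma adjusted p = 0.129). Bub3 likewise passed as lower (log2 fold change -0.46, SE 0.07, limma adjusted p = 7.52e-04) and no longer did after that correction, at -0.13 (limma adjusted p = 0.167). Pttg1 had -0.12 (95% interval -0.34 to 0.10, limma adjusted p = 0.283) and passed as lower without SFRP2 siRNA replicate 3, at -0.22 (limma adjusted p = 0.033).

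Within groups the members shared deviations. RAB6A siRNA replicate 3 was the highest of its group for 37 of 46 members, beside 37.7% of all genes, with a median deviation from the group mean of 0.15 on the log2 scale. NC replicate 3 was the lowest of its group for 32 members, beside 35.6% of all genes, with a median deviation of -0.06. With RAB6A siRNA replicate 3 left out, the members' median against NC was -1.38, and 43 still passed as lower. With NC replicate 3 left out it was -1.32, and 44 passed as lower, Smc4 included.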

How the data were processed

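RNA-seq was measured in 9 RAW264.7 libraries. The authors deposited 1 table of FPKM per Ensembl gene. The submitters' processing notes name HISAT2, featureCounts and Subread without a role or version, and the build, annotation, strand setting and treatment of multi-mapped reads are not given in the sources used here. Multiplied by GENCODE M21 exon length, the FPKM of 98.4% of 27533 named genes gave whole reads within 0.03 in every library (604 identifiers had no name). The recovered totals are the depths given. The study's methods name DESeq2, but the values are not counts, so limma 3.58.1 (R 4.3.3; lmFit, eBayes with a trend) was run on log2(FPKM + 0.1) for genes averaging 0.5 FPKM or more over the 6 libraries compared, with Benjamini-Hochberg adjustment over all of them. Log2 fold changes are on that scale, which understates changes of low genes, and folds are ratios of mean FPKM. Genes were called at an adjusted p under 0.05, and a further count asked for a log2 fold change beyond 1.

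Named with all values were the 3 members of each role with the smallest adjusted p against NC with RAB6A siRNA, the 5 highest and 3 lowest in NC, the 3 of smallest p in each direction with SFRP2 siRNA, and any called member moving against the rest; of other lists, up to 4 members by adjusted p. Members and lists were chosen with earlier results of these data known. Scripts were tested on simulated data. Alternatives were pseudocounts of 1 and 0.01, no filter or a mean of 1, median-of-ratios scaling, quantile normalization, no trend, all 9 libraries in 1 fit, a replicate block, correction for GC content and length (splines, 5 degrees of freedom), limma-voom on recovered reads, and each library left out.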

Additional observations from a re-analysis of the deposited data

How the results depend on the processing

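Across the alternatives run, the members' count of falls with RAB6A siRNA stayed between 42 and 44 against NC and between 42 and 45 against SFRP2 siRNA, and no member was called with SFRP2 siRNA against NC. The median log2 fold change against NC moved from -1.28 to -1.11 with a pseudocount of 1, where 0 members rose by more than 1, and to -1.105 with correction for GC content and gene length, with or without the replicate block. Members that rose numbered 2 with quantile normalization and with that correction, with or without the block. Against SFRP2 siRNA the median moved from -1.39 to -1.195 with a pseudocount of 1 and to -1.13 with the correction, where 1 member rose by more than 1 and the estimate of Pttg1 turned to 0.0040, both with and without the block. The cause of these moves was not tested. In RAB6A siRNA against NC the log2 fold change moved with exon length over all genes (Spearman rho -0.21 over 12535 genes, which are not independent). The members had a median exon length of 4926 bases, beside 3711 for those genes.

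Leaving out 1 library at a time gave a median of -1.38 to -1.24, 43 to 44 falls and 30 to 33 falls beyond 1 against NC, -1.46 to -1.36, 44 to 45 and 33 to 36 against SFRP2 siRNA, and a median of 0.0925 to 0.142 with 0 calls for SFRP2 siRNA against NC. Same-numbered libraries correlated at -0.065 to 0.054 in their deviations, and libraries of different number at -0.131 to 0.103. These values showed no pairing by replicate number, but with 3 libraries per group they cannot settle whether the numbers pair the libraries. With the replicate number as a block the counts were 43 lower and 1 higher, 0, and 44 lower and 1 higher in the 3 comparisons. In that fit 23 members in place of 15 had an unadjusted p under 0.05 with SFRP2 siRNA. The share of all genes under that p was not counted in the block fit. Depth did not limit the members, but Sfrp2 itself, at 2 to 4 reads, could not be compared.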

Other observations

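Other genes that bear on chromosome cohesion and on entry into mitosis were compared between RAB6A siRNA and NC. Of 13 cohesin genes, 9 fell and 2 rose, with a median log2 fold change of -0.59. Counts in this paragraph are to be read beside 36.5% of all genes called lower and 37.6% called higher. Stag1 and Rad21, subunits of the cohesin ring complex, measured 5.37, 4.86 and 4.67 FPKM in NC and 1.89, 1.90 and 2.17 with RAB6A siRNA, and 40.5, 42.8 and 38.2 FPKM in NC and 20.9, 21.4 and 23.7 with RAB6A siRNA (log2 fold change -1.28, SE 0.09, limma adjusted p = 1.51e-05 and log2 fold change -0.88, SE 0.07, limma adjusted p = 2.30e-05). Stag2 and Smc1a had -0.81 and -1.04, while the cohesin loaders Mau2 (0.71) and Nipbl (0.49), named after their values were seen, rose. Beyond the members, the condensin II subunits Ncapg2 (-1.39) and Ncapd3 (-0.61) fell, and Ncaph2 had -0.13 and did not pass the test (limma adjusted p = 0.0973). In the list of CDK1 inhibitory kinases and mitotic phosphatase regulators 7 of 11 fell and 1 rose, with a median of -0.43. Wee1, the kinase that holds CDK1 inactive, measured 2.46, 2.34 and 2.15 FPKM in NC and 0.748, 0.912 and 0.598 with RAB6A siRNA (log2 fold change -1.52, SE 0.16, limma adjusted p = 1.00e-04). Ppp1cc, a catalytic subunit of protein phosphatase 1, had -1.04, Cks1b, a CDK-binding protein, -0.65, and Ppp2r2d, a B55 subunit of protein phosphatase 2A, -0.74. Arpp19, a B55 inhibitor, was the member that rose (0.55).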
